A study of Mus musculus with 6 samples.

Results

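The Krüppel-like and immediate early genes read here are Klf2, Klf4, Klf6, Klf9, Klf10, Klf15, Egr1, Ier2, Ier3 and Zfp36. They were taken from the table of liver counts by gene symbol, as 10 of the 34745 genes listed, and all 10 were among the 13734 genes with enough reads to be tested. Bulk RNA-Seq covered livers of WT mice that had been fasted for 12 hours and then received an intraperitoneal overdose of acetaminophen (APAP, 300 mg/kg, 12 hours) or saline. The study's methods and legends name male C57BL/6J mice at 8 to 10 weeks of age, and the hour of collection is not given in the sources used here. The labels give no time after saline. Counts were analysed for 2 APAP livers, replicates 1 and 3, and for 3 libraries named WT1, WT2 and WT3, which were taken to be the saline group, since no other columns remained for it. No count column for APAP replicate 2 was found in the table used, so it was not analysed here.

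Krüppel-like factors (KLFs) are zinc finger transcription factors that bind GC-rich and CACCC sequences, and several of them switch metabolic programmes between the fed and the fasted state in the liver. Immediate early genes are induced within minutes by growth factors, stress and injury from factors already present in the cell, without new protein synthesis. Their transcripts are typically short and unstable, and many carry AU-rich elements in the 3′UTR. ZFP36 (tristetraprolin) is the zinc finger protein that binds such elements and directs the decay of the transcript, its own included.

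The total count per library ranged from 13378445 to 15976339, and 3 reads, the detection floor used here, stood for 0.176 to 0.269 CPM (read counts scaled to a common library size by TMM). The groups also differed in sex-linked transcripts. Xist was at 0.763 and 1.73 CPM in the APAP livers and at 289, 913 and 881 CPM in WT1, WT2 and WT3, whereas the Y-linked Ddx3y had 1344 and 998 counts with APAP and 0, 0 and 1 with saline. The saline libraries thus go against the male mice that the methods name, so it is not certain that they are the study's saline livers, and every comparison below rests on reading them as such. Sex-linked expression and treatment cannot be told apart in any result below. Of the hepatocyte markers, which identify the tissue, 0 of 9 passed the adjusted test as higher and 1, Cyp2e1, as lower (2 lower by edgeR's likelihood ratio test and 4 by DESeq2, with Cps1, Ttr and Hnf4a). Their summed level was 81540 to 124400 CPM with APAP and 131200 to 178200 CPM with saline. Alb made up most of each sum, at 51496 and 89712 CPM with APAP and 128993, 95010 and 120278 CPM with saline (adjusted p = 0.512 by edgeR). Fgb and Apoa1, 2 of the 9, had log2 fold changes above 0, at 0.77 and 0.57. Neutrophil markers were higher with APAP in 7 of 11 tested, where 3.70% of all genes tested were called higher. DESeq2 called 9 of them and edgeR's likelihood ratio test 11. Of the 11, only Csf3r and S100a9 had enough counts with saline to pass the read filter, which favours higher values among the rest. The sums of the neutrophil markers were 88.4 to 136 CPM with APAP against 5.77 to 10.7 CPM with saline. Ly6g, which was not tested, had only 4 and 8 counts with APAP and 0 in every saline library. Monocyte markers were higher in 2 of 8, Ccr2 and Chil3. DESeq2 and edgeR's likelihood ratio test called 4, with Itgam and Vcan. Of these 4, only Ccr2 had enough counts with saline to pass the read filter, which favours higher values in the rest. Another entry of Itgam, left out of the 8, had 81 and 0 counts with APAP and 8, 4 and 14 with saline (adjusted p = 0.454 by edgeR). Both APAP values lay above every saline value in 5 of the 8, as in 24.0% of all genes tested. The sums overlapped, at 1511 to 2116 and 1249 to 1691 CPM. Most of each sum was Fn1, at 1413 and 1952 CPM with APAP and 1581, 1165 and 1472 CPM with saline. Markers of sinusoidal endothelial cells (12), Kupffer cells (10), stellate cells (9) and lymphocytes (4 tested) had 0 calls in either direction at an adjusted p under 0.05 in edgeR, and 1, 1, 1 and 0 of them had an unadjusted p under 0.05. DESeq2 called 0, 1, 1 and 0 of them, and edgeR's likelihood ratio test 0, 1, 0 and 0. What these cell types contributed to the counts of the 10 genes was not tested, and in bulk liver fewer cells of a type cannot be told apart from less RNA per cell.

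Promoters were matched in RefSeq (GRCm38.p6) for 7 of the 10 genes. Those of Klf6, Ier3, Zfp36 and Klf15 are shown because these genes spanned the range from higher to lower with APAP. Each run reads 5′ to 3′ on the gene's strand and ends at the last base before the gene's start in the deposited table. Capitals mark any match, on either strand, to the CCAAT box, the GC box GGGCGG, the E-box CACGTG, the EGR1 site GCGGGGGCG, the NF-κB-like GGANTTTCC, the AP-1-like TGANTCA, the cAMP response element TGACGTCA, TATAAA or the serum-response CArG box.
Klf6, chr13:5861239-5861488, plus strand: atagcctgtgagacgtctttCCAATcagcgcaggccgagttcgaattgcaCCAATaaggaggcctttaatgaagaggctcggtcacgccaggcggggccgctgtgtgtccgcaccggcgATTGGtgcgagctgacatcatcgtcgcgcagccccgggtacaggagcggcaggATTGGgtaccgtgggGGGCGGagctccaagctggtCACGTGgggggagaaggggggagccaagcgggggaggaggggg
Ier3, chr17:35821463-35821683, plus strand: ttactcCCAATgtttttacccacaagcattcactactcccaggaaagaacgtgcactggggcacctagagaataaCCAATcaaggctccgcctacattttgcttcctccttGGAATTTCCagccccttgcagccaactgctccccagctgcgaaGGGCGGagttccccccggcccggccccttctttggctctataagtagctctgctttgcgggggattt
Zfp36, chr7:28379256-28379478, minus strand: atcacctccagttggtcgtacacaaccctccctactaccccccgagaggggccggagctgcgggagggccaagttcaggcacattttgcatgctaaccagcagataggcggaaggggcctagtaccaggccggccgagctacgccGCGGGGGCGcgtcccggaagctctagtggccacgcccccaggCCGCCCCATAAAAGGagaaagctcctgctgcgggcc
Klf15, chr6:90462326-90462575, plus strand: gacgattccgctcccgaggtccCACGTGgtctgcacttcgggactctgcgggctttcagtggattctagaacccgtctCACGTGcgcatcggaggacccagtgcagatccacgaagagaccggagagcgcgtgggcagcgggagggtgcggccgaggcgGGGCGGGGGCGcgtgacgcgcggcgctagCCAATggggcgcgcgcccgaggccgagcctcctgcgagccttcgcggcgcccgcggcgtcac
The window searched was the 250 bases before the RefSeq start, and the motifs were chosen after these promoters had been read. Klf6 carried 4 CCAAT matches, and 1 CACGTG at 43 to 38 bases upstream. Ier3 held GGAATTTCC at 139 to 131 bases upstream, a letter pattern found in 1.07% of 32851 promoters. Zfp36 held 1 CArG box at 58 to 49 bases upstream, present in 1.47% of promoters, overlapping a GC box by 1 base. Klf15 held CACGTG at 228 to 223 and at 172 to 167 bases upstream, where 6.02% of promoters held at least 1, and a GCGGGGGCG overlapping a GC box. GCGGGGGCG occurred in 4 of the 7 promoters (Klf2, Klf4, Klf15 and Zfp36) and in 2.57% of all, CACGTG in 3 (Klf4, Klf6 and Klf15), GGGCGG in 6 and in 32.7% of all, and CCAAT in 4 and in 33.8% of all. TGANTCA was in Klf9 only among the 7 and in 6.75% of all. TATAAA (12.4% of all) and TGACGTCA (1.55%) were in 0 of the 7. A match describes letters and is not evidence of a bound site.

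The AU-rich pentamer ATTTA, in capitals below, was counted in the 3′UTR of each gene in GENCODE M21. The window with most pentamers is shown for Ier3 and Zfp36, which had the densest 3′UTRs of the 10.
Ier3, chr17:35822484-35822513, plus strand: ctaattaatATTTAtgtATTTAtgtatatc
Zfp36, chr7:28376958-28376987, minus strand: cctttATTTAtgacgactttATTTAttgta
Ier3 carried 5 ATTTA in 613 bases of 3′UTR, or 8.16 per kb, and Zfp36 carried 3 in 767 bases, or 3.91 per kb. The median over 12740 tested coding genes was 1.25 per kb. The Zfp36 window holds the nonamer TTATTTATT, which was found in 1 of the 10 genes and in 7.49% of all. Ier2 had 0 ATTTA in 755 bases, and the other members lay between 1.02 (Klf4) and 2.68 (Klf10) per kb. The median span of the members was 5243 bp against 24310 bp over the same 12740 genes, with Klf9 the longest at 25686 bp, and Ier2, at 1522 bp, is a single exon.

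Between APAP and saline livers, 3 of the 10 genes rose and 1 fell at an adjusted p under 0.05, by the quasi-likelihood test of edgeR, adjusted by Benjamini-Hochberg over all genes tested. Egr1, Klf6 and Ier3 rose and Klf15 fell. Over all genes tested, 3.70% were called higher and 3.53% lower at this threshold. By the study's thresholds (fold change of at least 1.5, unadjusted P under 0.05), Ier2 joined the higher genes, giving 4 higher and 1 lower, where 12.4% of all genes were higher and 11.2% lower. The 2 APAP libraries lay wholly above the 3 saline libraries for Egr1, Klf6, Ier3 and Ier2 and wholly below for Klf15 and Klf2, which was so for 24.0% and 20.1% of all genes. The median log2 fold change was 0.68 over the 10 genes, 2.03 over the 4 immediate early genes (Egr1, Ier2, Ier3 and Zfp36), -0.33 over the 6 KLF genes and 0.03 over all genes tested. Scaling to library size only, without TMM factors, raised the median of all genes by 0.39 and the share of higher genes among those called from 51.2% to 77.8%. Under it 4 members were called higher (Egr1, Klf6, Ier3 and Ier2) and 0 lower, where 7.59% of all genes tested were called higher and 2.16% lower.

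**Figure D1:**
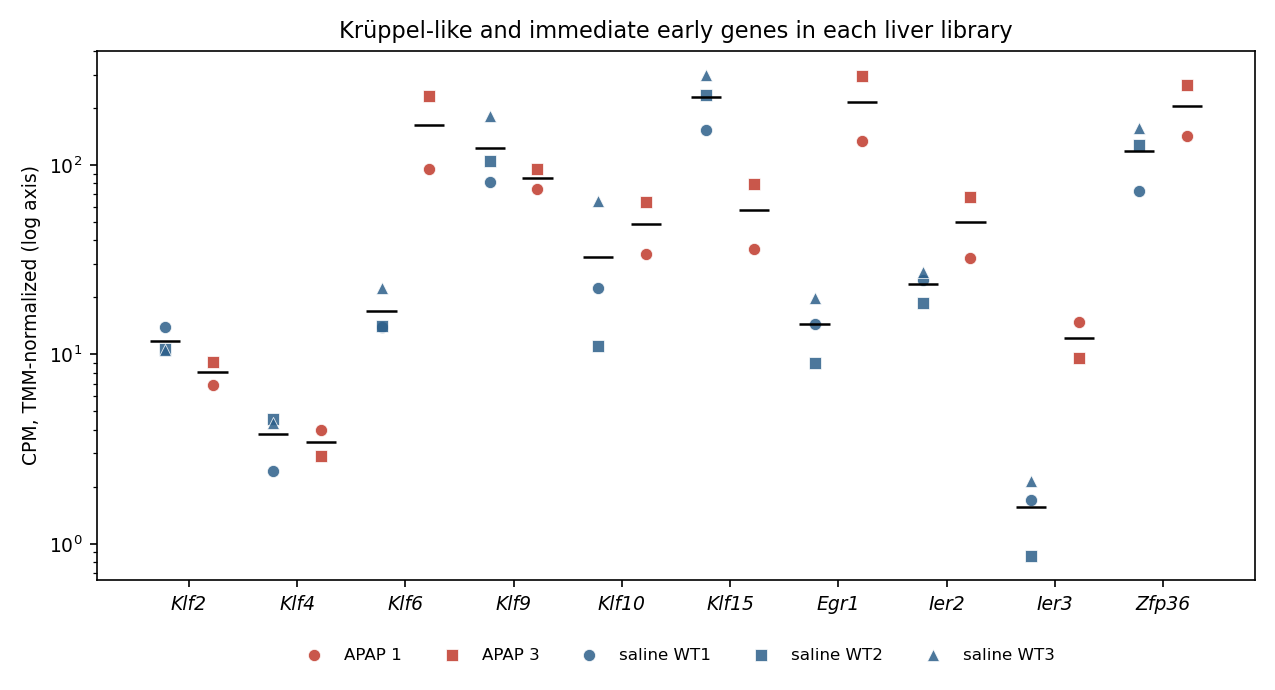
Level of each of the 10 genes in each library, in TMM-normalized CPM on a log axis, with saline in blue on the left, APAP in red on the right and a bar at the group mean. The APAP points stood clear above the saline points for Egr1, Klf6, Ier3 and Ier2 and clear below for Klf15 and Klf2.

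Egr1, an immediate early zinc finger transcription factor induced through the MAP kinases and serum response factor, had the largest change of the 10. The gene (ENSMUSG00000038418) lies on chromosome 18 of GRCm38 from 34859823 to 34864984 on the plus strand. It was at 134 and 294 CPM in APAP replicates 1 and 3, and at 14.5, 8.96 and 19.9 CPM in WT1, WT2 and WT3. The lower APAP liver was 6.75-fold above the highest saline liver, so the groups were far apart although the APAP livers differed from each other 2.19-fold. The fitted fold change was 14.8 (log2 3.89, SE 0.45, 95% CI 2.82 to 4.96, adjusted p = 0.00666 by edgeR). Egr1 was called in all 12 alternative fits, with log2 fold changes of 3.20, without APAP replicate 3, to 4.35, without APAP replicate 1, and adjusted p up to 0.0435.

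Klf6, a widely expressed KLF that is itself induced early after tissue injury, was the KLF gene that rose. The gene (ENSMUSG00000000078) lies on chromosome 13 from 5861489 to 5870393 on the plus strand. It was at 95.7 and 231 CPM in the APAP livers, and at 13.97, 14.1 and 22.5 CPM with saline. All APAP values were at least 4.25-fold above the highest saline value. The fold change was 9.69 (log2 3.28, SE 0.42, 95% CI 2.28 to 4.27, adjusted p = 0.00936 by edgeR), and without WT2 it was not called (log2 3.16, adjusted p = 0.0628). Without APAP replicate 3 the log2 fold change was 2.49 (adjusted p = 0.0215).

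Ier3 (IEX-1), an early response gene of NF-κB and p53 that modulates cell survival, rose from the lowest level of the called genes. The gene (ENSMUSG00000003541) lies on chromosome 17 from 35821684 to 35822923 on the plus strand. It was at 14.9 and 9.63 CPM in the APAP livers, and at 1.70, 0.863 and 2.14 CPM with saline, where it had 19, 13 and 32 counts. The groups did not overlap, and unlike Egr1 and Klf6 the higher APAP value was in replicate 1. The fold change was 7.82 (log2 2.97, SE 0.44, 95% CI 1.93 to 3.999, adjusted p = 0.0147 by edgeR). Without APAP replicate 1 the log2 fold change was 2.62 (adjusted p = 0.0963), and without WT2 it was 2.67 (adjusted p = 0.0547).

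Ier2, an immediate early nuclear protein induced by serum, passed the study's thresholds but not the adjusted test. It lies on chromosome 8 from 84661331 to 84662852 on the minus strand. It was at 32.2 and 67.8 CPM in the APAP livers, and at 24.6, 18.6 and 27.3 CPM with saline. APAP replicate 1 was only 1.18-fold above WT3, so the separation rested mainly on replicate 3. The log2 fold change was 1.09 (SE 0.34, 95% CI 0.28 to 1.90, adjusted p = 0.107 by edgeR's quasi-likelihood test). It was called by edgeR's likelihood ratio test (adjusted p = 0.0475) and with library size only (adjusted p = 0.0371), and without APAP replicate 3 its log2 fold change was 0.44 (adjusted p = 0.508).

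Zfp36 was the most abundant immediate early member in saline livers and was not called. The gene lies on chromosome 7 from 28376784 to 28379255 on the minus strand. It was at 143 and 266 CPM in the APAP livers, and at 72.9, 127 and 158 CPM with saline. APAP replicate 1 lay within the saline range and replicate 3 above it. The log2 fold change was 0.78 (SE 0.40, 95% CI -0.17 to 1.72, adjusted p = 0.285 by edgeR). An annotated antisense gene, Gm44710, overlaps Zfp36 over 1274 bp. The strand setting of the counting is not given in the sources used here, so reads of the antisense gene cannot be told apart from those of Zfp36.

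Klf15, the KLF that drives amino acid breakdown and gluconeogenesis in fasted liver, was the member that fell. The gene (ENSMUSG00000030087) lies on chromosome 6 from 90462576 to 90475238 on the plus strand. It was at 36.1 and 79.2 CPM in the APAP livers, and at 154, 235 and 300 CPM with saline. The groups did not overlap, the higher APAP value being 0.515 of the lowest saline value. Expression was 25.1% of that in saline livers (log2 -1.99, SE 0.45, 95% CI -3.05 to -0.94, adjusted p = 0.0451 by edgeR). The call was the weakest of the 4. With library size only the adjusted p was 0.0617, and it was 0.0543 to 0.208 with any 1 of the 5 libraries left out (log2 fold changes of -2.68 without APAP replicate 3 to -1.53 without APAP replicate 1).

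Klf9, Klf10, Klf2 and Klf4 did not pass either threshold. Klf9, a glucocorticoid-induced and circadian KLF on chromosome 19 (23141226 to 23166911, plus strand), was at 74.6 and 95.7 CPM in the APAP livers and at 81.8, 105 and 181 CPM with saline. Its groups overlapped, with a log2 fold change of -0.53 (SE 0.37, 95% CI -1.40 to 0.34, adjusted p = 0.428 by edgeR). Klf10, a TGF-β-induced KLF under clock control on chromosome 15 (38294413 to 38300707, minus strand), was at 33.99 and 63.6 CPM in the APAP livers and at 22.5, 11.0 and 64.7 CPM with saline.
The saline livers alone spanned 5.87-fold for Klf10, and WT3 exceeded both APAP livers. Its log2 fold change was 0.58 (SE 0.68, 95% CI -1.03 to 2.18, adjusted p = 0.651 by edgeR), between 0.04 without APAP replicate 3 and 1.55 without WT3. Klf2, the flow-induced KLF of endothelial cells on chromosome 8 (72319033 to 72321656, plus strand), was at 6.93 and 9.14 CPM in the APAP livers and at 13.9, 10.7 and 10.6 CPM with saline. Its groups did not overlap, but the log2 fold change of -0.54 (SE 0.27, 95% CI -1.18 to 0.10) was not called (adjusted p = 0.270 by edgeR). Klf4, known from epithelia and pluripotent cells, lies on chromosome 4 (55527143 to 55532466, minus strand) and was the member of lowest level per length. It was at 3.99 and 2.90 CPM in the APAP livers and at 2.42, 4.58 and 4.34 CPM with saline, and 0.268% of its 50-base words are shared with Gm48640. Its log2 fold change of -0.14 (SE 0.41, 95% CI -1.11 to 0.84, adjusted p = 0.874 by edgeR) turned to 0.24 with library size only.

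**Figure D2:**
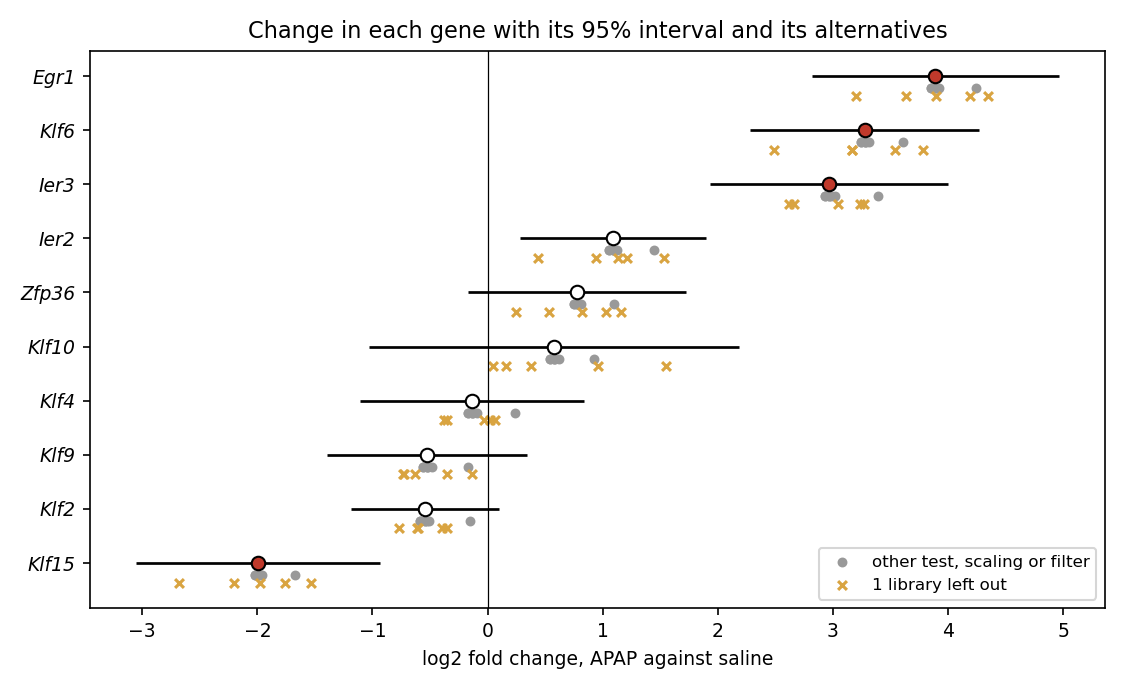
Log2 fold change of each gene, APAP against saline, with its 95% interval (line), filled where the adjusted p was under 0.05. Grey dots are other tests, scalings or filters and crosses are fits with 1 library left out, and those of Klf15 were all below 0, with an adjusted p under 0.05 in 6 of 12.

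Divided by exon length, the levels in saline livers ran from Klf15 at 82.3 ± 26.2 CPM per kb of exon (SD, n = 3) through Zfp36 at 48.3 ± 17.4, Klf9 at 34.2 ± 14.5, Ier2 at 15.4 ± 2.94, Klf10 at 9.58 ± 8.27 and Klf2 at 6.35 ± 1.01. Klf6 at 3.85 ± 1.11, Egr1 at 3.22 ± 1.22, Ier3 at 1.39 ± 0.572 and Klf4 at 1.24 ± 0.389 CPM per kb were the lowest. In this order the libraries of neighbours overlapped, except that Klf9 stood above Ier2, Klf2 above Klf6 and Egr1 above Ier3. With APAP the order was led by Zfp36 at 82.7 ± 35.3 (SD, n = 2), Egr1 at 47.8 ± 25.2, Klf6 at 37.3 ± 21.9 and Ier2 at 32.8 ± 16.6 CPM per kb. Klf9 (23.7 ± 4.17), Klf15 (20.7 ± 10.9), Klf10 (14.3 ± 6.13) and Ier3 (10.9 ± 3.30) followed, and Klf2 (4.35 ± 0.847) and Klf4 (1.13 ± 0.253) were last. Only Ier3 over Klf2 and Klf2 over Klf4 were neighbours without overlap in the APAP order. Klf15 moved from rank 1 to rank 6, Egr1 from 8 to 2 and Klf6 from 7 to 3.

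**Figure D3:**
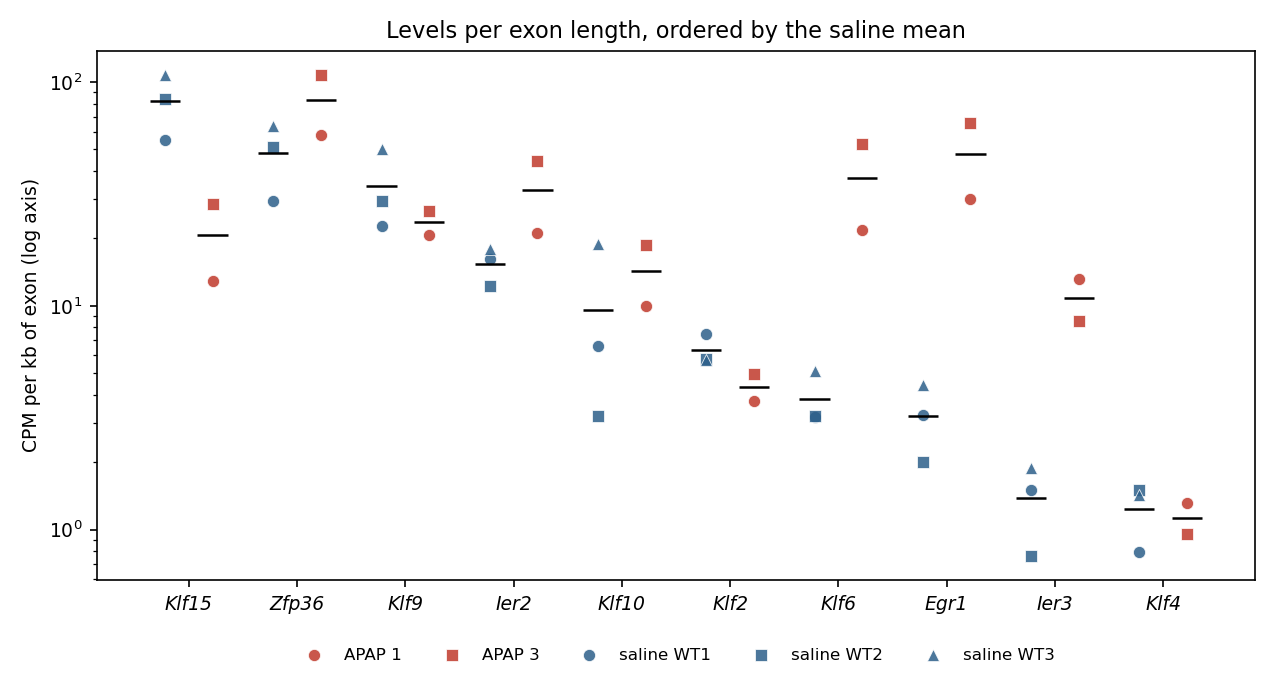
Level of each gene in CPM per kb of exon on a log axis, ordered by the saline mean, with 1 point per library and a bar at the group mean. Egr1 and Klf6, near the right end in saline livers, rose into the range of Klf9 and Zfp36 with APAP, and Klf15 dropped from the first place.

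The rest of the pathways was read from lists of related genes. Beside the counts below, 3.70% of all genes tested were called higher and 3.53% lower. The groups did not overlap in 24.0% of all genes as higher and in 20.1% as lower. Among the other immediate early genes, 15 of 27 tested rose and 0 fell, with a median log2 fold change of 1.78, and the groups did not overlap in 20, all higher. Of the 15, Arc, Fosb and Fosl1 passed the read filter only through their counts with APAP, so they could only be called higher. With these 3 set to their bound at the floor the median was the same. Jun, the AP-1 subunit, was at 87.9 and 554 CPM in the APAP livers and at 15.3, 10.8 and 35.97 CPM with saline (log2 3.95, SE 0.82, adjusted p = 0.0379 by edgeR). As for Egr1 and Klf6, replicate 3 held the higher Jun value. Atf3, a stress-induced repressor of the ATF family, was at 195 and 110 CPM against 2.06, 1.33 and 3.67 CPM (log2 6.01, SE 0.48, adjusted p = 0.00219 by edgeR). Here, as for Ier3, replicate 1 was the higher. Id1, an inhibitor of helix-loop-helix factors, rose by a log2 fold change of 2.71 (adjusted p = 0.0104 by edgeR) and Mcl1, an anti-apoptotic BCL2 relative, by 1.07 (adjusted p = 0.0376 by edgeR).

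Among the EGR family, the EGR co-repressors and the relatives of IER and ZFP36, 3 of 7 tested rose and 0 fell (median 0.85). Ier5 was at 60.4 and 33.96 CPM in the APAP livers and at 4.48, 6.57 and 6.74 CPM with saline (log2 2.98, SE 0.32, adjusted p = 0.00521 by edgeR). Zfp36l2, a relative of Zfp36 with the same kind of RNA target, rose by a log2 fold change of 1.46 (SE 0.30, adjusted p = 0.0359 by edgeR), whereas Zfp36 itself was not called. The difference between Zfp36l2 and Zfp36 was not tested. Egr2 had 45 and 34 counts with APAP and 1, 3 and 3 with saline, which is at the floor, so no fold is given (adjusted p = 0.0179 by edgeR). Egr2, and Ier5l, which was not called, passed the read filter only through their counts with APAP, which favours higher values in this list.

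Of the other KLF genes, 0 of 7 tested passed the adjusted test of edgeR, and their median log2 fold change was -0.53. Klf1, the erythroid KLF (log2 -1.45, adjusted p = 0.179 by edgeR), and Klf12 (log2 -0.95, adjusted p = 0.167 by edgeR) passed the study's thresholds as lower, and these 2 were the only ones of the 7 with an unadjusted p under 0.05. DESeq2 and edgeR's likelihood ratio test also called 0 of the 7. The highest mean CPM were those of Klf3, at 85.5 and 142 CPM with APAP and 72.2, 79.8 and 92.2 CPM with saline (adjusted p = 0.329 by edgeR), and Klf13, with a log2 fold change of -0.53 (adjusted p = 0.429 by edgeR). Klf5, chosen after its values were seen, did not pass the filter and had 57 and 8 counts with APAP against 0, 2 and 2 with saline. Klf14 and Klf17 had 0 counts in all 5 libraries.

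Transcripts known to be bound by ZFP36 through AU-rich elements rose in 4 of 9 tested, Ier3 among them, and 0 fell (6 of 9 by edgeR's likelihood ratio test). Their median log2 fold change was 2.97, which is the value of Ier3, or 1.70 with the genes at the floor in saline livers set to their bound. Of the 15 listed, Tnf, Il6, Il10, Csf2, Ccl3 and Lif did not pass the read filter and were not tested. Cxcl2, Ptgs2 and Plau passed it only through their counts with APAP, which favours higher values in this median. Cxcl1, a neutrophil-attracting chemokine, was at 113 and 153 CPM in the APAP livers and at 3.31, 6.77 and 3.20 CPM with saline (log2 4.90, SE 0.39, adjusted p = 0.00213 by edgeR). Myc was at 17.4 and 19.3 CPM against 1.34, 1.79 and 2.34 CPM (log2 3.31, SE 0.31, adjusted p = 0.00376 by edgeR). Cxcl2 had 290 and 72 counts with APAP and 1 in each saline library. Neutrophil markers were higher in the same 2 livers, and their part in these counts was not tested. Of the known EGR1 targets, 3 of 14 rose and 0 fell (median 0.60). Besides Atf3, they included Gdf15, a stress cytokine (log2 2.52, SE 0.41, adjusted p = 0.0187 by edgeR).

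Genes of amino acid breakdown and gluconeogenesis that are linked to KLF15 were read next. Of 13 tested, 2 fell and 0 rose, where 3.53% of all genes were called lower. In 10 of them both APAP values were below every saline value, as in 20.1% of all genes. Their median log2 fold change was -1.16, and 9 of them had an unadjusted p under 0.05. The count that fell was 5 by edgeR's likelihood ratio test and 8 by DESeq2, among them Tat, G6pc and Got1. Cth, the enzyme that makes cysteine from cystathionine, was at 74.3 and 75.2 CPM in the APAP livers and at 1201, 1260 and 1434 CPM with saline (log2 -4.12, SE 0.30, adjusted p = 0.00183 by edgeR). Prodh, which oxidizes proline, was at 31.3 and 28.2 CPM against 159, 127 and 156 CPM (log2 -2.31, SE 0.24, adjusted p = 0.00482 by edgeR). The summed level of the hepatocyte markers, most of it Alb, was also lower in both APAP livers than in any saline liver. Its part in these values was not tested.

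Klf9 and Klf10 are tied to glucocorticoids and to the clock. Of 13 glucocorticoid-responsive genes, 1 rose and 0 fell, with a median log2 fold change of 0.01. DESeq2 and edgeR's likelihood ratio test also called 2 lower, Tat and Tsc22d3. The riser was Lcn2, which neutrophils and the acute phase response also express, at 2043 and 660 CPM against 11.8, 9.49 and 62.1 CPM (log2 5.60, SE 0.97, adjusted p = 0.0231 by edgeR). Tat, a classical glucocorticoid target and a gluconeogenic enzyme, had a log2 fold change of -1.37 (adjusted p = 0.101 by edgeR). Of 18 clock genes, 2 rose and 2 fell, or 4 and 4 by DESeq2 and 5 and 4 by edgeR's likelihood ratio test. Dbp, an output gene of the clock, was at 12.6 and 9.94 CPM in the APAP livers and at 1.08, 1.06 and 0.934 CPM with saline (log2 3.45, SE 0.31, adjusted p = 0.00360 by edgeR), and Per3 rose by a log2 fold change of 2.22 (adjusted p = 0.0345 by edgeR). Cry1 fell by 1.52 on the log2 scale (adjusted p = 0.0164 by edgeR). The other 14 were not called. With no hour of collection given, treatment and time of day cannot be told apart for the genes that changed.

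**Figure D4:**
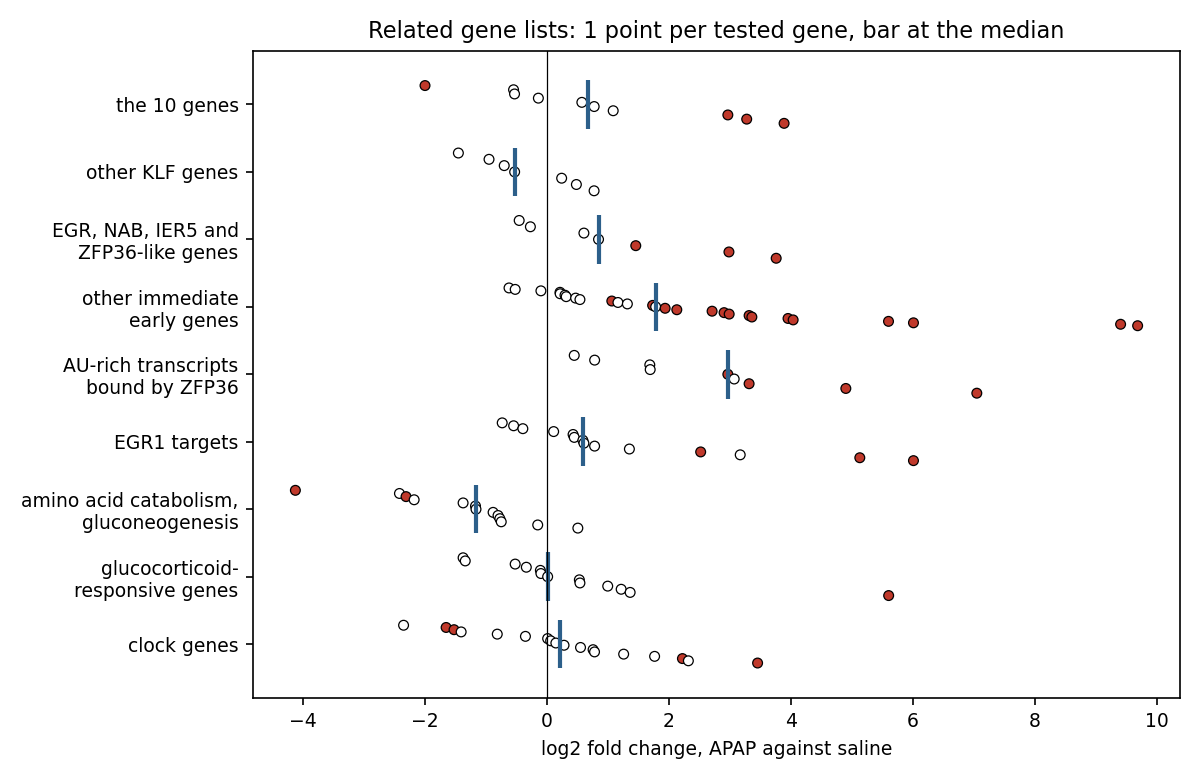
Log2 fold change, APAP against saline, of each tested gene in the 10 genes and 8 related lists, with 1 point per gene, filled where the adjusted p was under 0.05, and a bar at the median. Values far to the right include genes with about 0 counts in saline livers, whose fitted size depends on the prior count, and Ier3, Myc and Atf3 are among the genes that stand in more than 1 list.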

How the data were processed

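Total RNA from liver was sequenced as 6 samples, 3 per group, on an Illumina NovaSeq platform. A library is called a liver here for short. The authors deposited raw read counts per gene, obtained with HISAT2 and not normalized. The table used here held count columns for 5 libraries, and none for APAP replicate 2 was found in it. The 5 columns of FPKM from StringTie were not used. The build is GRCm38 (mm10) per the submitters' processing notes, while program versions and strand setting are not given in the sources used here. The names of the saline columns do not match numbered samples. The labels do not say that replicates came from separate animals. The study states at least 3 biological repeats for all its experiments, without naming these libraries. The p-values measure the spread between these samples, whatever its source. Replicates differed beyond sampling noise (43.2 to 92.2 as chi-square over its degrees of freedom, within groups) and none was merged.

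Tests were run with edgeR 4.0.16 in R 4.3.3. Genes kept by filterByExpr (minimum count 10, minimum total 15) were normalized by TMM and compared by glmQLFit and glmQLFTest, with Benjamini-Hochberg adjustment over 13734 genes. SEs were derived from the F statistics. The study names edgeR and the thresholds of 1.5-fold and P under 0.05, without saying which test was used or whether P was adjusted. The procedure was tested on simulated data. The alternatives were the likelihood ratio test, DESeq2 1.42.0, 3 other scalings, other filters and each library left out. Floors and intervals cover only the error they are computed from, since reads carry no molecular identifiers. The 10 genes and all gene lists were chosen with earlier results of these data known. All 10 genes are named, and from each related list up to 4 genes with an adjusted p under 0.05 by mean CPM, or the 2 of highest mean CPM where fewer than 2 passed. Some genes that this rule names are not reported here. Sex-linked genes and cell markers were read as checks. Exon lengths, 3′UTRs and shared 50-base words came from GENCODE M21 within the deposited loci. Klf6, Klf9, Klf10 and Zfp36 have other start or end positions there. Python 3.11.15 and matplotlib 3.10.9 were used for sequences and plots.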

Additional observations from a re-analysis of the deposited data

How the results depend on the processing

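The 4 genes with an adjusted p under 0.05 became 5 by the likelihood ratio test (with Ier2) and stayed 4 in number by DESeq2, with 3 other scalings and with both other filters. Leaving out each library gave between 1 and 3, with 2 without APAP replicate 1 and 1, Egr1, without WT2. The 5 genes at the study's thresholds ranged from 4 to 7 with 1 library left out and were 6 with library size only. Of 120 values of single genes under alternatives, 106 kept their direction and side of the threshold, 9 lost the call, 2 gained it and 3 changed sign. All 3 were of Klf4, at 0.24 with library size only and within -0.38 to 0.06 with 1 library left out (0.063 without APAP replicate 3, 0.022 without WT2). Where 1 APAP library was left out, the lone sample was assumed to vary like the saline group. The causes were not tested. No paired analysis was possible because the saline columns carry no number that ties them to numbered samples. With 2 APAP libraries, the 95% intervals of the 6 genes that were not called reached from -1.40 to 2.18 on the log2 scale, and genes at 3 counts or fewer could not be sized.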

Other observations

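The 10 genes varied within groups as well as between them. In 8 of the 10 the level was higher in APAP replicate 3 than in replicate 1, the exceptions being Ier3 and Klf4, and the median ratio was 1.87. Over 13276 tested genes with a count in every library the ratio was 1.01 and 51.7% were higher in replicate 3. A ratio of at least 1.5 was seen in 6 of the 10 genes (Klf6, Klf15, Egr1, Ier2, Klf10 and Zfp36) and in 13.2% of all. Klf15, which fell with APAP, and Egr1 and Klf6, which rose, were thus all higher in the same APAP liver.

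In saline livers the highest value over the lowest had a median of 2.06 over the 10 genes and 1.53 over all. A saline range as wide as the 5.87-fold of Klf10 was reached by 3.41% of all genes. WT3 was the highest saline library for 8 of the 10 genes, against 35.6% of all. These are descriptions of 5 livers that were made after the values had been seen, and the genes share libraries.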
